A study of Mus musculus with 15 samples.

Results

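The genes described here encode 9 proteins that build glycogen in the liver, break it down or control these steps, and they were taken by name from the liver RNA-seq table of the series. All 9 of 9 genes were found among the 21702 genes of the table, and all 9 were among the 12172 genes with enough counts to be tested. Gys2, Gbe1, Gyg and Ugp2 act in glycogen synthesis, Pygl, Phka2 and Phkg2 act in glycogen breakdown, and Ppp1r3b and Ppp1r3c bring protein phosphatase 1 to glycogen.

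The livers came from 15 adult female wild-type C57BL/6 mice (C57BL/6N by the study's methods) in 5 groups of 3, which had received virus particles through the tail vein. By the study's account, the 16 dpc mice used for RNA-seq had received the virus before pregnancy. AAV8-null mice, which received an AAV8 vector without an insert, were sampled as non-pregnant (NP) mice and at 8 and 16 days post coitum (dpc). AAV8-p21 mice, which received the same vector carrying mouse p21 cDNA (Cdkn1a, an inhibitor of the cell cycle) behind the hepatocyte promoter TBG, were sampled at 8 dpc and 16 dpc, and no NP mice of this kind were part of the table. Every group therefore carries AAV8, and the effect of the vector itself has no control among these libraries. Cdkn1a was at 347 to 1664 CPM (counts scaled to library size) in AAV8-p21 livers and at 3.29 to 127 CPM in AAV8-null livers, without overlap.

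Liver glycogen is built from UDP-glucose, which Ugp2 makes. Glycogenin (Gyg) primes the chain, glycogen synthase (Gys2 in liver) extends it and the branching enzyme Gbe1 branches it. Liver glycogen phosphorylase (Pygl) releases glucose units after activation by phosphorylase kinase, of which Phka2 is the liver regulatory subunit and Phkg2 the catalytic subunit, while protein phosphatase 1, held on glycogen by subunits such as Ppp1r3b and Ppp1r3c, activates the synthase and switches the phosphorylase off. The store follows feeding and time of day in liver, and several of these transcripts are known to cycle over the day.

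Total counts per library ran from 12280709 to 17615185, and CPM were scaled to these totals with edgeR's TMM factors, which ran from 0.682 to 1.25. Albumin took 7.90% to 12.9% of the counts in NP and 8 dpc livers and 20.5% to 27.8% at 16 dpc, and the summed level of 5 hepatocyte markers, Alb among them, was at 74085 to 128957 CPM in NP and 8 dpc livers and at 269229 to 431633 CPM at 16 dpc. The sum was mostly Alb, and its members did not move alike. Between 16 dpc and NP with AAV8-null, edgeR called Alb and Apoa1 higher and Ttr lower, and 2 of the 5 had a negative log2 fold change. None of the 5 was at 0. The summed level of 5 markers of sinusoidal endothelium was also higher at 16 dpc than at 8 dpc without overlap, at 81.3 to 113 CPM and then 160 to 215 CPM with AAV8-null and at 106 to 139.9 CPM and then 158 to 173 CPM with AAV8-p21. That of 5 stellate cell markers was at 84.6 to 138 and then 169 to 246 CPM with AAV8-null, and overlapped with AAV8-p21. The summed markers of bile duct were at 36.0 to 53.3 CPM in 8 dpc AAV8-p21 livers and at 18 to 26.8 CPM in AAV8-null livers of that stage, and at 19.6 to 43.0 and 8.41 to 17.3 CPM at 16 dpc, so the sums were also lower at 16 dpc than at 8 dpc with AAV8-null, without overlap, while 3 of the 5 markers of skeletal muscle had no count in any library of each group. In whole liver, fewer cells of a type and less RNA per cell cannot be told apart.

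Levels between genes were compared as CPM per kilobase of exon. Ugp2 and Gys2 were the most abundant of the 9 transcripts in NP livers, at 125 and 92.0 CPM per kilobase on average, and their ranges overlapped. Pygl followed at 36.4 and Ppp1r3b at 34.3 CPM per kilobase, again with overlapping ranges, and then came Gbe1 at 11.7 and Ppp1r3c at 9.48. Phkg2 at 4.79, Phka2 at 3.32 and Gyg at 2.16 CPM per kilobase were the lowest. Over the 5 groups Gys2 moved between ranks 1 and 4, Ppp1r3b between ranks 3 and 5 and Ppp1r3c between ranks 4 and 6, while each other gene moved by 1 rank at most. Gys2 held rank 4 of the 9 with AAV8-null and rank 3 with AAV8-p21 at 8 dpc, and rank 1 in both kinds of liver at 16 dpc, where its range overlapped that of Ugp2. Ppp1r3c averaged 24.1 CPM per kilobase at 8 dpc and 22.96 at 16 dpc with AAV8-null, and 26.5 at 8 dpc and 3.91 at 16 dpc with AAV8-p21. Gbe1 and Phkg2 kept ranges that did not overlap where they were neighbours in the order, which was the case in every group of pregnant mice except AAV8-p21 at 16 dpc. In NP livers the ranges of Ppp1r3b and Gbe1, of Ppp1r3c and Phkg2 and of Phkg2 and Phka2 did not overlap, while the other neighbours in the order did.

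**Figure D1:**
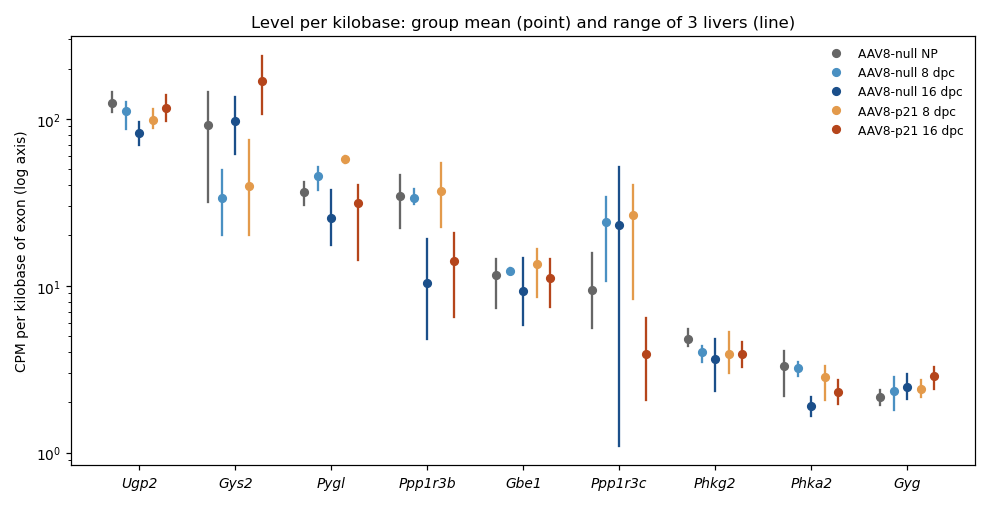
Level of each gene in CPM per kilobase of exon on a log axis, with the mean of each group as a point and the range of its 3 livers as a line. Ugp2 and Gys2 lead in NP livers, Gyg is lowest there at 2.16, and the line of Ppp1r3c in 16 dpc AAV8-null livers is the longest.

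The genes also differed in how far single livers lay apart. Across the 15 livers, the highest level of Ppp1r3c was 46.9 times its lowest, against 11.9 times for Gys2 and 11.3 times for Ppp1r3b. The same ratio was 4.21 for Pygl and between 1.82 and 2.84 for Gbe1, Gyg, Ugp2, Phka2 and Phkg2. Gyg had the fewest reads, with 59 to 115 counts per library, and Ppp1r3c had 36 counts in its lowest library.

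No gene of the 9 passed an adjusted p of 0.05 in any of the 7 comparisons planned for this work with edgeR's quasi-likelihood test over all genes. The share of all tested genes that passed was 0% between 8 dpc and NP AAV8-null livers, 6.52% between 16 dpc and NP, 6.87% between 16 dpc and 8 dpc with AAV8-null and 3.32% between these stages with AAV8-p21. It was 0.0246% between the viruses at 8 dpc, 0.0739% at 16 dpc and 0% for the interaction of virus and stage. Before adjustment, 1, 3, 4, 4, 0, 2 and 1 of the 9 genes had an edgeR p under 0.05 in these comparisons, in the order given, where the shares of all genes were 6.60%, 21.2%, 22.7%, 16.4%, 5.18%, 9.77% and 3.09%. The DESeq2 Wald test on all libraries called 0, 2, 3, 1, 0, 0 and 0 of the 9 genes, beside 0.497%, 9.32%, 10%, 6.01%, 0.204%, 1.04% and 0% of all genes. limma voom with sample weights called 1, 3, 4, 3, 0, 0 and 0, beside 15.2%, 13.2%, 14%, 14.9%, 0.863%, 0.961% and 0% of all genes. The calls therefore depended on the test, and the values of single livers are given below before each estimate.

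**Figure D2:**
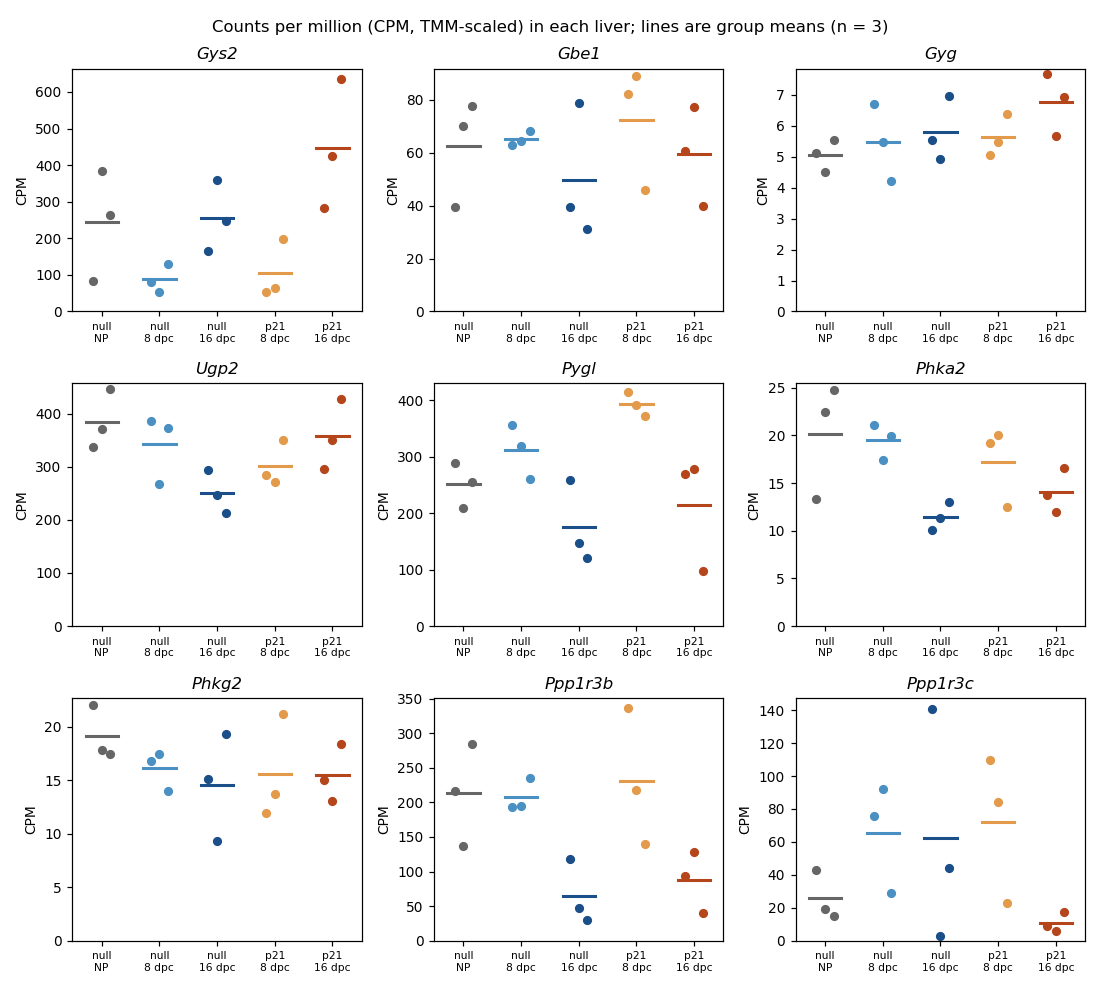
CPM of the 9 genes in each of the 15 livers, with 1 point per liver, a line at the mean of each group of 3 and axes that start at 0. Every liver of 16 dpc lies below every liver of 8 dpc for Ppp1r3b, and Gys2 lies higher at 16 dpc than at 8 dpc within each virus.

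Gys2, the liver glycogen synthase (ENSMUSG00000030244, GRCm38 chromosome 6 from 142422613 to 142473109, minus strand), was at 84.4, 385 and 264 CPM in the 3 NP AAV8-null livers. It had 81.4, 53.4 and 131 CPM in the AAV8-null livers of 8 dpc and 164, 358 and 248 CPM in those of 16 dpc. All 3 livers of 16 dpc lay above all 3 of 8 dpc, while the NP livers spanned both ranges through 1 low liver. Gys2 had 53.3, 63.1 and 199 CPM in the AAV8-p21 livers of 8 dpc and 283, 425 and 635 CPM in those of 16 dpc, again without overlap. The log2 fold change from 8 dpc to 16 dpc was 1.54 in AAV8-null livers (standard error 0.58, 95% interval 0.29 to 2.78, adjusted p = 0.128 from edgeR) and 2.09 in AAV8-p21 livers (standard error 0.59, interval 0.83 to 3.35, adjusted p = 0.0706 from edgeR). The difference between these changes was 0.55 on the log2 scale, with an interval from −1.17 to 2.27. It was 0.85 with limma voom and ran from 0.16 to 1.41 with 1 liver left out. The DESeq2 Wald test on all libraries and limma voom called the higher level at 16 dpc in both kinds of liver, with adjusted p-values between 0.000241 and 0.149 over the settings tried for the 2 comparisons. Without the AAV8-p21 liver of 199 CPM at 8 dpc, the change in AAV8-p21 livers was 2.96 and passed in edgeR (adjusted p = 0.0212).

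From NP to 8 dpc the log2 fold change of Gys2 was −1.47 (standard error 0.58, interval −2.71 to −0.23, adjusted p = 0.586 from edgeR), and limma voom called it. From NP to 16 dpc it was 0.07 (interval −1.14 to 1.29), a value that went to −0.34 when the NP liver of 84.4 CPM was left out. Between the viruses at 16 dpc it was 0.80 (interval −0.42 to 2.02, adjusted p = 0.672 from edgeR), and the ranges overlapped.

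Gbe1, the branching enzyme (ENSMUSG00000022707, chromosome 16 from 70313949 to 70569716, plus strand), was at 39.5, 70.2 and 77.5 CPM in NP livers, 63.1, 64.6 and 68.1 at 8 dpc and 39.5, 78.7 and 31.3 at 16 dpc in AAV8-null livers. It had 82.1, 88.9 and 45.8 CPM in the AAV8-p21 livers of 8 dpc and 60.8, 77.3 and 39.98 CPM in those of 16 dpc. The groups overlapped in every comparison, and the log2 fold changes between groups lay between −0.39 and 0.25 with edgeR. Some were larger under alternatives, none of which called Gbe1. limma voom gave −0.74 between 16 dpc and NP and 0.67 between the viruses at 16 dpc, and without the AAV8-null liver of 78.7 CPM these values were −0.82 and 0.75. Gyg, the primer of the chain (ENSMUSG00000019528, chromosome 3 from 20122084 to 20155317, minus strand), stayed between 4.21 and 7.67 CPM in all livers, with group means from 5.05 ± 0.512 (SD, n = 3) in NP livers to 6.75 ± 1.01 in 16 dpc AAV8-p21 livers. Its largest log2 fold change was 0.26, between 16 dpc and 8 dpc in AAV8-p21 livers, with an interval from −0.21 to 0.74.

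Ugp2, which makes UDP-glucose (ENSMUSG00000001891, chromosome 11 from 21321138 to 21371201, minus strand), was at 337, 371 and 446 CPM in NP livers. It had 387, 267 and 374 CPM in the AAV8-null livers of 8 dpc and 293, 246 and 214 CPM in those of 16 dpc. Each liver of 16 dpc lay below each NP liver, and the log2 fold change was −0.61 (standard error 0.21, interval −1.07 to −0.16, adjusted p = 0.107 from edgeR). limma voom called this difference, and the adjusted p ran from 0.0269 to 0.193 over the settings tried. Ugp2 had 285, 272 and 350 CPM in the AAV8-p21 livers of 8 dpc and 297, 350 and 427 CPM in those of 16 dpc.

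At 16 dpc every AAV8-p21 liver was above every AAV8-null liver for Ugp2, though the nearest were 297 and 293 CPM. The log2 fold change was 0.51 (standard error 0.21, interval 0.06 to 0.97, adjusted p = 0.467 from edgeR). The summed bile duct markers were also higher with AAV8-p21 at this stage, and their part in this difference and in that of Ppp1r3c was not tested. From 8 dpc to 16 dpc it was −0.45 in AAV8-null livers (interval −0.90 to 0.01) and 0.25 in AAV8-p21 livers (interval −0.21 to 0.70). These changes differed by 0.69 (interval 0.05 to 1.33, adjusted p = 1 from edgeR), so the difference passed before adjustment but not over the table.

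Pygl, the liver glycogen phosphorylase (ENSMUSG00000021069, chromosome 12 from 70190811 to 70231488, minus strand), was at 288, 209 and 256 CPM in NP livers. It had 356, 319 and 260 CPM in the AAV8-null livers of 8 dpc and 258, 147 and 120 CPM in those of 16 dpc. It had 415, 393 and 373 CPM in the AAV8-p21 livers of 8 dpc and 270, 278 and 98.4 CPM in those of 16 dpc. The livers of 16 dpc lay below those of 8 dpc in both kinds of liver, by a margin of less than 2 CPM in AAV8-null livers (258 against 260). The log2 fold change was −0.83 in AAV8-null livers (standard error 0.35, interval −1.57 to −0.09, adjusted p = 0.167 from edgeR) and −0.87 in AAV8-p21 livers (standard error 0.35, interval −1.61 to −0.13, adjusted p = 0.212 from edgeR). limma voom called the first (−1.004, adjusted p = 0.0337 from limma voom) and not the second, and the adjusted p ran from 0.0337 to 0.176 and from 0.0933 to 0.254 over the settings. At 8 dpc all AAV8-p21 livers were above all AAV8-null livers, with a log2 fold change of 0.34 (interval −0.40 to 1.07, adjusted p = 1 from edgeR).

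The count ratio of Gys2 to Pygl, the synthase against the phosphorylase, combined both patterns. It averaged 1.06 in NP livers (0.293 to 1.84). In AAV8-null livers it averaged 0.300 at 8 dpc (0.167 to 0.504) and 1.71 at 16 dpc (0.636 to 2.44). With AAV8-p21 the ratio averaged 0.275 at 8 dpc (0.128 to 0.535) and 3.01 at 16 dpc (1.05 to 6.45). No ratio of an 8 dpc liver reached that of any 16 dpc liver, and NP livers spanned both. The ratio was computed after the values of both genes were seen and was not tested.

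Phka2, the regulatory subunit of phosphorylase kinase (ENSMUSG00000031295, chromosome X from 160502166 to 160598878, plus strand), was at 13.3, 22.4 and 24.8 CPM in NP livers. It had 21.1, 17.4 and 20.0 CPM in the AAV8-null livers of 8 dpc and 10.1, 11.3 and 13.0 CPM in those of 16 dpc, so that the 16 dpc livers lay below all others of this virus. The log2 fold change was −0.81 between 16 dpc and NP (standard error 0.25, interval −1.34 to −0.29, adjusted p = 0.0653 from edgeR) and −0.76 between 16 dpc and 8 dpc (standard error 0.24, interval −1.29 to −0.24, adjusted p = 0.0745 from edgeR). Both passed in the DESeq2 Wald test on all libraries and in limma voom, and without the NP liver of 13.3 CPM the first passed in edgeR too (log2 fold change −1.04, adjusted p = 0.0132). Phka2 had 19.2, 20.1 and 12.5 CPM in the AAV8-p21 livers of 8 dpc and 13.7, 11.9 and 16.6 CPM in those of 16 dpc. These overlapped, with a log2 fold change of −0.30 (interval −0.81 to 0.22), and the changes in the 2 kinds of liver differed by 0.47 (interval −0.27 to 1.20). limma voom called the lower level at 16 dpc in AAV8-p21 livers too (−0.55, adjusted p = 0.0453 from limma voom) and put the difference between these changes at 0.20.

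Phkg2, the catalytic subunit (ENSMUSG00000030815, chromosome 7 from 127573340 to 127583307, plus strand), lay between 9.33 and 22.1 CPM in all livers. Its group means ran from 14.6 ± 5.01 CPM (SD, n = 3) in 16 dpc AAV8-null livers to 19.1 ± 2.56 in NP livers, and the log2 fold changes between groups lay between −0.39 and 0.09. Of its 4000 exon bases, 876 lie within the span of Ccdc189 on the opposite strand, which had 0 to 28 counts per library where Phkg2 had 112 to 319. Whether the counting used the strand is not stated, so how reads from these bases were counted is not known. Ugp2, Pygl, Phka2 and Ppp1r3b also overlap noncoding genes of the annotation that the table does not list.

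Ppp1r3b, the main glycogen-targeting subunit of protein phosphatase 1 in liver (ENSMUSG00000046794, chromosome 8 from 35375739 to 35388139, plus strand), was at 217, 137 and 285 CPM in NP livers. It had 193, 195 and 235 CPM in the AAV8-null livers of 8 dpc and 118, 47.0 and 29.6 CPM in those of 16 dpc. It had 336, 217 and 140 CPM in the AAV8-p21 livers of 8 dpc and 93.6, 128 and 40.3 CPM in those of 16 dpc. Each of the 6 livers of 16 dpc lay below each of the other 9 livers. In AAV8-null livers the log2 fold change was −1.71 between 16 dpc and NP (standard error 0.50, interval −2.79 to −0.64, adjusted p = 0.058 from edgeR), or 0.305 times the NP level, and −1.68 between 16 dpc and 8 dpc (standard error 0.50, interval −2.75 to −0.61, adjusted p = 0.0591 from edgeR).

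These 2 values of Ppp1r3b lay close to the threshold and crossed it with small changes of method. Both passed with no filter on low counts, in the DESeq2 Wald test and in limma voom, and their adjusted p ran from 0.00483 to 0.116 over the settings. Without the AAV8-null liver of 118 CPM at 16 dpc they were −2.47 and −2.44 and passed in edgeR (adjusted p = 0.012 and 0.0142). In AAV8-p21 livers the log2 fold change from 8 dpc to 16 dpc was −1.40 (standard error 0.50, interval −2.47 to −0.34, adjusted p = 0.156 from edgeR). The changes in the 2 kinds of liver differed by 0.27 (interval −1.20 to 1.75), and the viruses differed by 0.43 at 16 dpc (interval −0.62 to 1.47), a value that was 0.95 with limma voom, 1.19 without the AAV8-null liver of 118 CPM and 0.04 without the AAV8-p21 liver of 128 CPM.

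Ppp1r3c, a second targeting subunit (ENSMUSG00000067279, chromosome 19 from 36731731 to 36736653, minus strand), was at 43.0, 19.4 and 15.1 CPM in NP livers. It had 75.8, 92.2 and 28.9 CPM in the AAV8-null livers of 8 dpc and 141, 2.999 and 44.1 CPM in those of 16 dpc, so that the latter held both its highest and its lowest value of the 15 livers. It had 110, 84.1 and 22.8 CPM in the AAV8-p21 livers of 8 dpc and 8.94, 5.60 and 17.4 CPM in those of 16 dpc, without overlap. The log2 fold change from 8 dpc to 16 dpc in AAV8-p21 livers was −2.76 (standard error 0.95, interval −4.79 to −0.73, adjusted p = 0.144 from edgeR). limma voom called it, as did edgeR and DESeq2 with only these 6 libraries in the model but not DESeq2 on all libraries, and the adjusted p ran from 5.03e-06 to 0.146 over the settings.

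At 16 dpc the log2 fold change of Ppp1r3c between the viruses was −2.55 (standard error 0.95, interval −4.57 to −0.53, adjusted p = 0.39 from edgeR), yet the ranges overlapped because of the AAV8-null liver of 2.999 CPM. Leaving out any single one of these 6 livers gave values from −3.11 to −1.14. From NP to 16 dpc in AAV8-null livers it was 1.28 (interval −0.65 to 3.20), and −0.14 without the liver of 141 CPM. From 8 dpc to 16 dpc in AAV8-null livers it was −0.07 (interval −1.95 to 1.81), and the changes of the 2 kinds of liver differed by −2.69 (interval −5.42 to 0.04, adjusted p = 1 from edgeR). With 1 liver left out, this difference ran from −3.25 to −1.28.

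**Figure D3:**
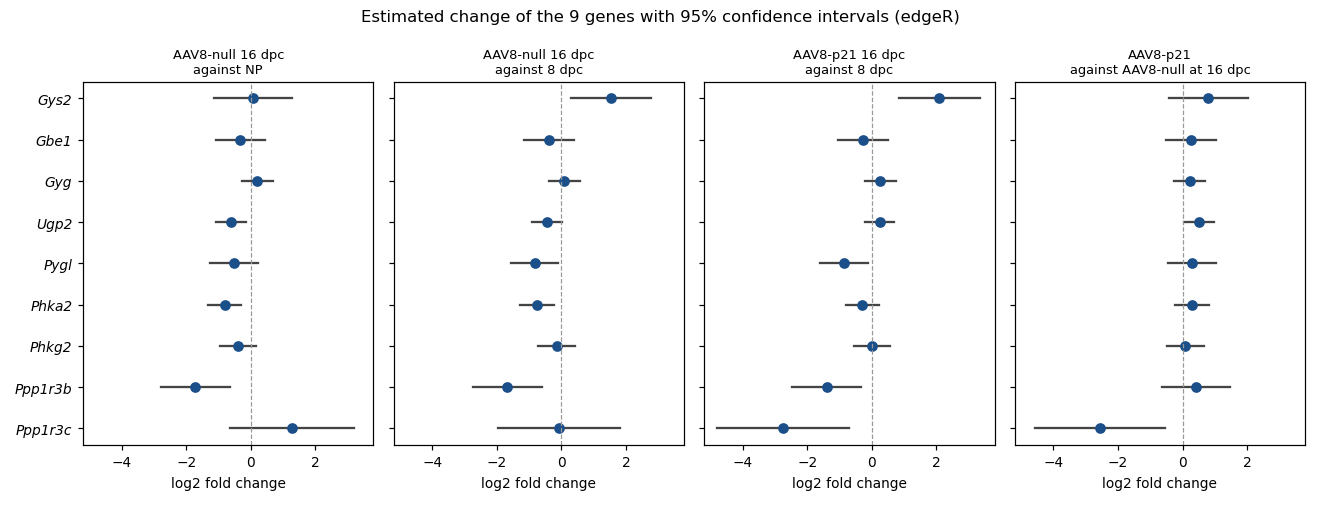
Log2 fold changes of the 9 genes with 95% confidence intervals from edgeR in 4 comparisons, with a dashed line at no change. The intervals of Gys2, Pygl and Ppp1r3b lie on the same side of the line for 16 dpc against 8 dpc in both kinds of liver, though no gene passed an adjusted p of 0.05.

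Because the changes from 8 dpc to 16 dpc of several genes had the same sign in both kinds of liver, their mean over both viruses was tested in the same model. This comparison was added after the values above were seen and after none of the planned ones had called any of the 9 genes with edgeR, and it draws on the same livers, so it is no independent evidence. With edgeR it called 4 of the 9 genes, 1 higher and 3 lower at 16 dpc, where 16.3% of all genes were called. Gys2 rose by 1.81 on the log2 scale (standard error 0.41, interval 0.93 to 2.70, adjusted p = 0.0093 from edgeR). Ppp1r3b fell by 1.54 (standard error 0.35, interval −2.30 to −0.79, adjusted p = 0.00945 from edgeR). Both were called in each of the 12 fits that left out 1 liver. The summed levels of the hepatocyte and sinusoidal endothelium markers given above were higher at 16 dpc in both kinds of liver too, while those of stellate cells were higher and those of bile duct lower without overlap with AAV8-null. With Alb left out of the scaling the same 4 genes were called, while the part of the other markers in these changes was not tested.

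Pygl fell by 0.85 (standard error 0.24, interval −1.37 to −0.33, adjusted p = 0.0296 from edgeR) and Phka2 fell by 0.53 (standard error 0.17, interval −0.90 to −0.16, adjusted p = 0.0489 from edgeR). Both of these calls lay near the threshold and were lost in many fits that left out 1 liver. The log2 fold changes in those fits ran from −1.05 to −0.68 for Pygl and from −0.61 to −0.47 for Phka2. Pygl was lost when any of 6 livers was left out (adjusted p 0.054 to 0.0712), 2 of each group except AAV8-p21 at 16 dpc, and Phka2 was lost when any of 10 was left out (0.0575 to 0.112). Phka2 also missed the threshold with DESeq2's size factors and with no filter on low counts. Ppp1r3c was at −1.41 (interval −2.78 to −0.05, adjusted p = 0.147 from edgeR), the mean of −0.07 and −2.76 given above. limma voom called it (−2.29, adjusted p = 0.00822 from limma voom), from −1.09 with AAV8-null and −3.48 with AAV8-p21. Without the AAV8-null liver of 141 CPM at 16 dpc it was −2.12 and passed in edgeR (adjusted p = 0.0344). By this mean the other 4 genes lay between −0.34 and 0.17. Before adjustment 5 of the 9 genes had an edgeR p under 0.05, beside 31.1% of all genes, and the DESeq2 Wald test on all libraries called 4 (18.2% of all genes) and limma voom 5 (28.4%).

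Of 11 clock genes, edgeR called 0 in any of the 7 planned comparisons or over both viruses. Before adjustment 5, 5, 0, 8, 0, 5, 2 and 4 had an edgeR p under 0.05 in these 8 comparisons, with the mean over both viruses last. The shares of all genes were 6.60%, 21.2%, 22.7%, 16.4%, 5.18%, 9.77%, 3.09% and 31.1%. DESeq2 on all libraries called 0, 0, 0, 2, 0, 0, 0 and 1 of them, beside 0.497%, 9.32%, 10%, 6.01%, 0.204%, 1.04%, 0% and 18.2% of all genes. limma voom called 8, 7, 1, 9, 0, 2, 0 and 7, beside 15.2%, 13.2%, 14%, 14.9%, 0.863%, 0.961%, 0% and 28.4%. The values of 2 of the 11 are given, a choice made with the values known. Dbp, a clock output gene, was at 5.68, 86.3 and 58.0 CPM in NP livers. With AAV8-null it ranged from 3.43 to 9.10 CPM at 8 dpc and from 1.33 to 11.4 CPM at 16 dpc. With AAV8-p21 it had 0.642, 1.71 and 61.4 CPM at 8 dpc and 51.8 to 120 CPM at 16 dpc. Arntl, the core clock gene also called Bmal1, was at 17.2, 1.71 and 1.40 CPM in NP livers, and with AAV8-null it ranged from 8.06 to 25.4 CPM at 8 dpc and from 10.2 to 23.3 CPM at 16 dpc. Arntl had 31.4, 21.4 and 2.45 CPM in the AAV8-p21 livers of 8 dpc and 0.511 to 2.91 CPM in those of 16 dpc, so the groups of 16 dpc did not overlap for either clock gene. Of the 11, Clock also lay lower with AAV8-p21 than with AAV8-null at 16 dpc and Nr1d2, Ciart and Per3 higher without overlap, while Npas2, Nr1d1, Tef, Per1 and Per2 overlapped. The share of all genes that did not overlap between these groups was not counted, so the clock genes have no background to be read against. The time of day at sampling and the feeding state are not given in the sources used here.

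Within the groups, the liver with the most Ppp1r3c was also the one with the most Arntl in 5 of 5 groups, and the liver with the least Ppp1r3c had the least Arntl in 4 of 5. Gys2 was highest in the liver with the most Dbp in 4 of 5 groups but lowest in the one with the least Dbp in 2 of 5. It was lowest in the liver with the most Arntl in 4 of 5 and highest in the one with the least in 3 of 5. Gbe1 was lowest in the liver with the least Dbp in 4 of 5, and the other 6 genes matched an end of either clock gene in 3 of 5 groups at most. The AAV8-p21 liver that stood apart at 8 dpc for Gys2 (199 CPM) and Ppp1r3c (22.8 CPM) was the one with 61.4 CPM of Dbp and 2.45 CPM of Arntl. These ranks were read from 3 livers a group and chosen after the values were seen. The part of clock phase in the differences of Gys2 and Ppp1r3c between groups was not tested. For Ppp1r3b, the liver with the most transcript had the most Arntl in 2 of 5 groups.

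**Figure D4:**
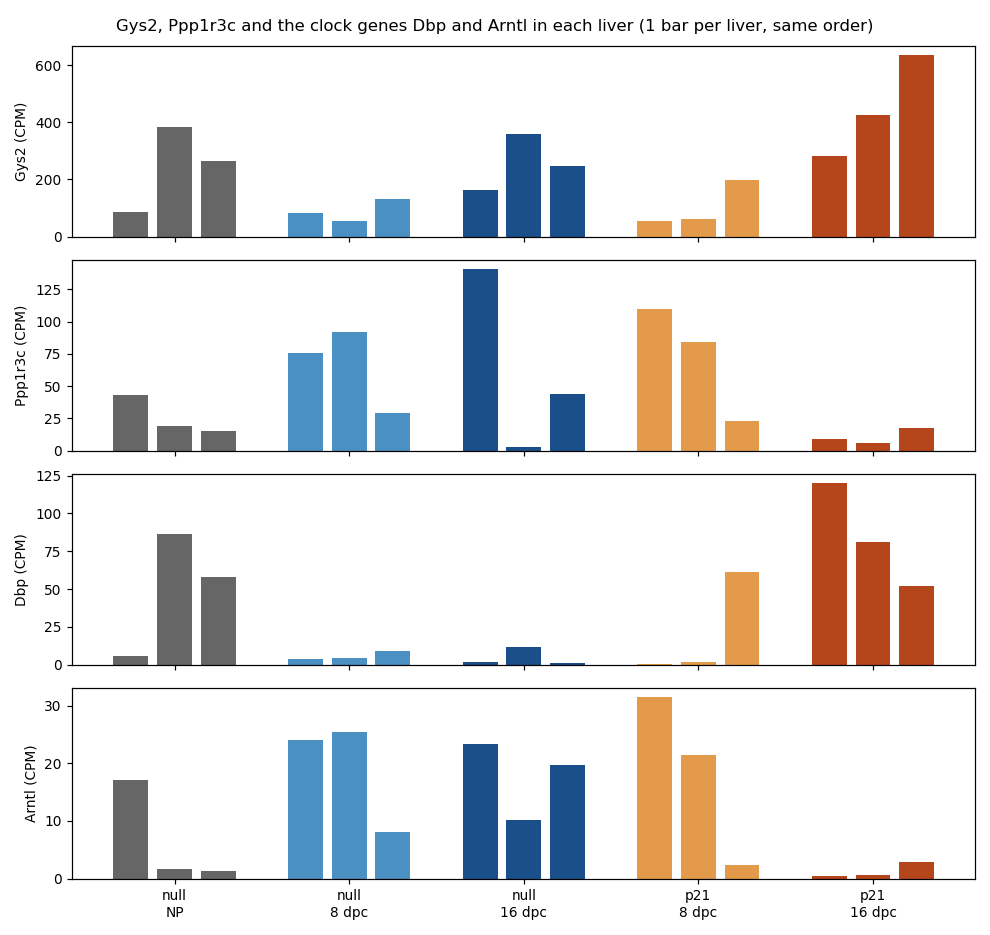
CPM of Gys2, Ppp1r3c, Dbp and Arntl in each liver, with 1 bar per liver in the same order in all panels and axes that start at 0. Ppp1r3c and Arntl peak in the same liver in 5 of 5 groups, and Gys2 and Dbp in 4 of 5.

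Promoter sequence is shown for the 2 genes whose window held the E-box CACGTG, the element that Arntl with its partner Clock is known to bind. Windows from 250 bases before to 50 after the start site, as annotated by RefSeq on GRCm38.p6, were found for 7 of the 9 genes (8 windows), all but Gys2 and Ppp1r3b. CACGTG, which reads the same on both strands, stood in 2 of these 8 windows, those of Ppp1r3c and Gyg, and in 7.15% of all 32851 windows. In the sequences the E-box is in capitals. It begins 104 bases before the RefSeq start site of Ppp1r3c (position −104) and 8 bases after that of Gyg. The gene spans given above are those of GENCODE and start elsewhere on the minus strand, at 36736653 for Ppp1r3c and 20155317 for Gyg. Distances from those starts differ, and the E-box of Gyg lies inside its GENCODE span. The first lies at chr19:36736654-36736854 and the second at chr3:20155091-20155120, both on the minus strand.
Ppp1r3c: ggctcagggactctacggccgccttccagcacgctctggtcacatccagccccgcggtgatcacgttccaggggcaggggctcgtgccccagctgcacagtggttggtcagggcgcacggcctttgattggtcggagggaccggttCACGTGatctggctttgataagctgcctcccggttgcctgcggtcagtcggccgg
Gyg: agcctgcgcggcCACGTGacggccgctata
Ppp1r3c was the most variable of the 9 transcripts and Gyg the least variable, so the 2 genes that share these letters differed in their spread. The D-box letters TTATGTAA or TTACGTAA, searched on both strands, stood in 0 of the 8 windows and in 1.056% of all windows. The half-site AGGTCA, searched on both strands, stood in the window of Pygl and in 16.26% of all windows. A match describes the letters of a window and does not show binding in these livers.

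Of 18 other enzymes and regulators of glycogen, 14 were tested, and Phkg1, Ppp1r3a, Ppp1r3d and Ppp1r3f had too few counts. With edgeR, 0 passed between 8 dpc and NP, between the viruses at 8 dpc or 16 dpc, or in the interaction. These 0 counts stood beside 1, 1, 2 and 1 genes with an edgeR p under 0.05 before adjustment and beside 0 calls by DESeq2 on all libraries and 2, 0, 1 and 0 calls by limma voom. Among all genes the shares were 6.60%, 5.18%, 9.77% and 3.09% before adjustment and 15.2%, 0.863%, 0.961% and 0% with limma voom. Between 16 dpc and 8 dpc, 1 gene rose within each virus, and it was Stbd1 both times. There 6.87% and 3.32% of all genes were called in either direction.

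Stbd1 is a glycogen-binding protein that is thought to take glycogen to the lysosome. It was at 39.8 to 48.2 CPM in 8 dpc AAV8-null livers and at 63.0 to 117 CPM at 16 dpc (log2 fold change 1.01, adjusted p = 0.0494 from edgeR). In AAV8-p21 livers it was at 30.9 to 65.1 CPM at 8 dpc and at 82.9 to 139 CPM at 16 dpc (log2 fold change 1.20, adjusted p = 0.0351 from edgeR). These calls lay near the threshold, since Stbd1 was called in 7 of 16 alternative fits with AAV8-null and in 9 of 14 with AAV8-p21. Over both viruses, Stbd1 rose by 1.11, Gaa, the lysosomal enzyme that degrades glycogen, rose by 0.47 and Ppp1r3g, another targeting subunit, rose by 3.51, while Gys1, the synthase of muscle, fell by 1.06 from a level of 2.05 CPM (adjusted p from 0.00251 to 0.0282 in edgeR). For Ppp1r3g the stages overlapped, and 3 livers of 16 dpc held the high values. It had 3.43, 0.357 and 3.02 CPM at 8 dpc and 3.39, 89.2 and 4.005 CPM at 16 dpc with AAV8-null, and 0.987, 0.114 and 5.60 CPM and then 17.1, 40.1 and 1.97 CPM with AAV8-p21. It was called in 13 of 19 alternative fits, and without the liver of 89.2 CPM it was at 1.94 (adjusted p = 0.153 from edgeR). Gaa was called in 14 of 20 and Gys1 in 14 of 19. The median log2 fold change over both viruses was −0.34 for the 9 genes and −0.13 for the 14, beside −0.01 for all genes.

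Of 11 kinase and phosphatase subunits that act on the synthase and the phosphorylase (among them Gsk3b, Prkaca, Akt2 and Ppp1cb), 0 passed in edgeR in any of the 7 planned comparisons or over both viruses. Before adjustment, 2 had an edgeR p under 0.05 between 16 dpc and NP, 1 each in the 16 dpc against 8 dpc comparisons, 3 over both viruses and 0 in the other 4. The shares of all genes were 21.2%, then 22.7% (AAV8-null) and 16.4% (AAV8-p21), then 31.1%, and 3.09% to 9.77% in the other 4. DESeq2 on all libraries called 2 over both viruses (Akt1 and Akt2), beside 18.2% of all genes. limma voom called 2 between 8 dpc and NP (Ppp1ca and Prkaca, beside 15.2%) and 3 over both viruses (Akt1, Akt2 and Ppp1ca, beside 28.4%). The mean over both viruses had a median log2 fold change of −0.02 for these genes.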

How the data were processed

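The authors made stranded mRNA libraries from liver RNA of 15 mice, and used cutadapt 1.14 for trimming, HISAT2 2.1.0 for alignment (mm10) and HTSeq 0.12.4 for counting (tools per the labels). The deposited values are raw counts per gene. The strand setting of the counting is not given in the sources used here. All 15 libraries entered 1 model in edgeR 4.0.16 (R 4.3.3) with its quasi-likelihood test, with TMM scaling, filterByExpr (minimum count 10), Benjamini-Hochberg adjustment and a threshold of 0.05 without a fold minimum. The study used DESeq2, which was run as an alternative (1.42.0), as was voom of limma 3.58.1. Intervals of 95% use the degrees of freedom of the test. Exon lengths are unions of GENCODE M21 exons on GRCm38, so a rarely used exon lowers a level per kilobase.

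The genes, lists and comparisons were chosen with earlier results of these data known, and the comparison over both viruses after the other 7 had been seen. By the rule for named genes, all 9 were named. A further rule, to name genes that resemble a called member in pattern, named none because no member was called in a planned comparison. Replicates are separate mice. The numbers of the AAV8-p21 livers at 16 dpc could not all be matched to the labels, so that group was used without numbers. No 2 libraries of a group agreed within sampling noise. The procedure was tested on simulated counts whose spread between replicates was set lower than that of these livers. That test therefore does not show how often changes are found or missed at the real spread. Results of some genes on the lists are not reported here.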

Additional observations from a re-analysis of the deposited data

How the results depend on the processing

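Outside the fits that left out a liver, the number of the 9 genes called moved in these cases. Between 8 dpc and NP it was 1 with limma voom (Gys2). Between 16 dpc and NP it was 1 with no filter on low counts, 2 with the DESeq2 Wald test on all libraries, 3 with limma voom and 1 with DESeq2 on the compared groups alone. Between 16 dpc and 8 dpc in AAV8-null livers it was 1, 3, 4 and 3 in the same order. In AAV8-p21 livers it was 1 with DESeq2 on all libraries, 3 with limma voom, 1 with edgeR on the compared groups alone and 3 with DESeq2 on these. Over both viruses, where edgeR called 4, it was 2 with a minimum log2 fold change of 1, 3 with DESeq2's size factors and with no filter on low counts (without Phka2), and 5 with limma voom (with Ppp1r3c). DESeq2's size factors, Albumin left out of the scaling and at least 10 counts in every library called 0 in each planned comparison, as edgeR did. With 1 liver left out, the number ran from 0 to 1 in the 3 comparisons of 16 dpc with NP or with 8 dpc within a virus and from 2 to 4 over both viruses. For each of these counts the cause was not tested.

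Same-numbered livers are different mice and did not deviate together (mean r 0.00731 over 18 pairs, −0.53 to 0.45, 7 of them over 0.1). With the replicate block, in the 12 libraries that carry a number, 1 gene (Ppp1r3b) was called between 16 dpc and NP and 1 (Ppp1r3b) between 16 dpc and 8 dpc. The same 12 libraries without it gave 1 and 0, and both fits gave 0 in the other 2 comparisons that could be made. No other replicate block could be fitted, because the AAV8-p21 livers of 16 dpc carry no usable number.

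Of 1188 values for the 9 genes in 8 comparisons, 1072 kept their direction and their side of the threshold, 36 passed only under the alternative, 18 passed only in the reported fit (all over both viruses) and 62 changed sign, 50 of these with a liver left out. With limma voom, the sign changed for Gbe1 (−0.14) and Ppp1r3b (0.11) between 8 dpc and NP, Gys2 between 16 dpc and NP (−0.41), Gys2 (−0.11) and Gyg (−0.13) between the viruses at 8 dpc, Phkg2 between the viruses at 16 dpc (−0.078), and Pygl in the interaction (0.32). For Phkg2 in AAV8-p21 livers it changed to 0.0090 with DESeq2's size factors, 0.0083 and 0.0039 with DESeq2 on all libraries and on the compared groups, and 0.059 with limma voom. With the replicate block, Ppp1r3c between the viruses at 8 dpc was at −0.0064.

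The following log2 fold changes took both signs when 1 liver was left out. Between 8 dpc and NP they ran from −0.18 to 0.25 for Gbe1, −0.057 to 0.27 for Gyg, −0.27 to 0.12 for Phka2 and −0.27 to 0.23 for Ppp1r3b. Between 16 dpc and NP they ran from −0.34 to 0.56 for Gys2 and −0.14 to 1.86 for Ppp1r3c. Between 16 dpc and 8 dpc in AAV8-null livers they ran from −0.071 to 0.25 for Gyg, −0.40 to 0.10 for Phkg2 and −1.48 to 0.49 for Ppp1r3c, and in AAV8-p21 livers from −0.17 to 0.29 for Phkg2. Between the viruses at 8 dpc they ran from −0.61 to 0.64 for Gys2, −0.031 to 0.38 for Gbe1, −0.11 to 0.21 for Gyg, −0.30 to 0.0094 for Phka2, −0.33 to 0.12 for Phkg2, −0.22 to 0.41 for Ppp1r3b and −0.29 to 0.56 for Ppp1r3c, and at 16 dpc from −0.15 to 0.34 for Phkg2. In the interaction they ran from −0.14 to 0.60 for Gbe1, −0.27 to 0.35 for Pygl, −0.10 to 0.41 for Phkg2 and −0.11 to 1.04 for Ppp1r3b, and over both viruses from −0.20 to 0.079 for Phkg2.

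Over all genes, the number called outside the fits that left out a liver ran from 0 with edgeR to 1850 with limma voom between 8 dpc and NP, and from 399 to 1602 between 16 dpc and NP, 338 to 1707 and 319 to 1817 between 16 dpc and 8 dpc in AAV8-null and AAV8-p21 livers, 0 to 105 and 3 to 135 between the viruses at 8 dpc and 16 dpc, 0 to 14 in the interaction and 926 to 3452 over both viruses under the settings tried. Some of these settings used only the compared groups, only the 12 libraries that carry a number, or a minimum fold change. With 3 livers a group, intervals as wide as those of Ppp1r3c leave changes of several-fold undetected, and the low counts of Gyg add counting error.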

Other observations

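Glucose reaches and leaves the glycogen pathway through Slc2a2, the main glucose transporter of hepatocytes, Gckr, a regulator of glucose phosphorylation, the glucose-6-phosphatase subunit G6pc and the transporter Slc37a4 that serves it. With edgeR, 0 of these 4 genes passed in any of the 7 planned comparisons. limma voom called Slc2a2 and Slc37a4 at both stages against NP, and G6pc and Slc37a4 between stages with AAV8-null and with AAV8-p21 respectively, while DESeq2 on all libraries called G6pc between the stages with AAV8-null. The edgeR p before adjustment was under 0.05 for Gckr between 16 dpc and NP, for G6pc and Gckr between 16 dpc and 8 dpc in AAV8-null livers, for Slc37a4 in AAV8-p21 livers and for G6pc in the interaction. G6pc ranged from 228 to 397 CPM at 8 dpc and from 562 to 837 CPM at 16 dpc in AAV8-null livers (log2 fold change 1.20, adjusted p = 0.0661 from edgeR). Over both viruses, Gckr fell by 0.59 between 8 dpc and 16 dpc (adjusted p = 0.0494 from edgeR, called in 8 of 20 alternative fits).

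Of 7 receptors and substrates of the hormones that set the pathway, Irs2, an insulin receptor substrate, rose between NP and 16 dpc in AAV8-null livers, being at 19.6 to 30.9 and then at 64.5 to 84.1 CPM (1.55 on the log2 scale, adjusted p = 0.0355 from edgeR, called in 10 of 16 alternative fits). Irs1, the other substrate, was at 19.6 to 25.9 CPM in NP livers and at 7.03 to 15.9 CPM at 16 dpc (log2 fold change −1.05, adjusted p = 0.0979 from edgeR), and over both viruses it fell by 0.96 between 8 dpc and 16 dpc (adjusted p = 0.0173 from edgeR). The insulin receptor Insr and the glucagon receptor Gcgr had log2 fold changes of 0.11 and 0.09 there, with adjusted p-values of 0.729 and 0.693 from edgeR.

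Among 8 fasting genes, Pdk4, which limits pyruvate oxidation, had 159, 1222 and 110 CPM in the 16 dpc AAV8-null livers and 14.6 to 36.0 CPM in those of 8 dpc (log2 fold change 4.49, adjusted p = 0.00558 from edgeR, called in 15 of 16 alternative fits). The value went to 2.60 without the liver of 1222 CPM. In AAV8-p21 livers Pdk4 was at 13.7 to 23.4 CPM at 8 dpc and at 14.4 to 40.9 CPM at 16 dpc, with overlap (log2 fold change 0.53, adjusted p = 0.782 from edgeR). The liver with 1222 CPM of Pdk4 was the one with 2.999 CPM of Ppp1r3c and 358 CPM of Gys2. With edgeR, Cpt1a, Fgf21, Pdk4 and Tat were called higher at 16 dpc than at 8 dpc over both viruses and 0 of the 8 lower, where 16.3% of all genes were called. In the AAV8-p21 livers alone edgeR called 0 of the 8, beside 3.32% of all genes. Before adjustment 5 had an edgeR p under 0.05 there (16.4% of all genes), DESeq2 on all libraries called 1 (6.01%) and limma voom called 4 (14.9%). The part of the feeding state in the differences of the 9 glycogen genes was not tested.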
